A study of Homo sapiens with 3 samples.

Results

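The genes described here encode the collagens, the laminins and 5 matrix proteins that are found beside them, namely fibronectin (FN1), SPARC, periostin (POSTN) and the nidogens NID1 and NID2. They were taken by gene name, under a rule set with earlier results of these data known. The rule took every listed gene whose symbol is that of a collagen chain or a laminin chain, plus those 5. This gave 61 of the 38606 genes listed. Their RNA was measured in 3 single-cell RNA libraries, 1 per treatment, from HES3 MIXL1:GFP cells, a human embryonic stem cell line with a fluorescent reporter of the primitive streak gene MIXL1, grown as disc-shaped colonies on micropatterned coverslips. All 3 groups were seeded with 10 µM of the Rock inhibitor Y-27632, left to grow for 24 h, and treated over the next 48 h. The BMP4 group received 50 ng/mL of the ligand BMP4. The CHIR group received 6 µM of CHIR99021, which blocks the kinase GSK3 and thereby turns on WNT signalling. In the CHIR+Activin group, Activin A at 100 ng/mL was combined with CHIR99021 at 3 µM, so the CHIR99021 dose also differs between the last 2 groups. About 10 micropatterns were pooled per library from 1 reporter line, and no library is of untreated cells.

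Collagens are trimers of chains wound into a triple helix. The fibrillar collagens (I, V, XI, XXVII) build fibres, the FACIT collagens (IX, XII, XIV and others) attach to those fibres, collagen IV forms the network of basement membranes, collagen VI forms beaded filaments beside them, and collagens XIII, XVII, XXIII and XXV are held in the cell membrane. Laminins are trimers of 1 alpha, 1 beta and 1 gamma chain that form the other network of the basement membrane, to which nidogens bind. In the embryo the epiblast rests on such a membrane, and cells that leave it through the primitive streak to become mesoderm cross it and move on a matrix rich in fibronectin.

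The libraries held 9401 (BMP4), 7084 (CHIR) and 6876 (CHIR+Activin) kept cells, with 137174566, 185215378 and 130592423 UMIs (counted RNA molecules) and medians of 12623, 22919.5 and 17202 UMIs per cell. Levels are given in CPM, a gene's UMIs scaled by the total UMIs of all kept cells, where 3 UMIs correspond to 0.0219, 0.0162 and 0.0230 CPM. With 1 library per treatment there is no replicate error and no test. Intervals are exact 95% intervals of the counts and cover counting error only, so that each difference is one between these libraries or groups of cells. Genes of at least 10 CPM on either side of a comparison were compared, and at least 2-fold is the size above which a gene is counted. A 3' assay reads each gene near its end, and levels are therefore compared between samples and not between genes. Of the possible pairs of libraries, 8 to 12 cell barcodes were shared per pair. Fibroblast markers (4 genes) summed to 10.4 to 12.98 CPM per library and neural markers (2 genes) to at most 0.0972 CPM, whereas epiblast markers (7 genes) summed to 1592, 2249 and 2319 CPM, given for BMP4 first, then CHIR, then CHIR+Activin.

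Of the 61 genes, 27 reached 10 CPM in at least 1 library (44.3%, against 26.3% of all genes), 23 peaked between 1 and 10 CPM, and 11 stayed under 1 CPM everywhere. The fibrillar collagen COL3A1, a main collagen of skin and vessels, was at 0.0802 CPM in BMP4 (11 UMIs) and lower elsewhere. Summed over the 61 genes, the level was 1606 CPM in BMP4, 1085 CPM in CHIR and 1051 CPM in CHIR+Activin. The excess in BMP4 lay mostly in 4 groups. Fibrillar collagens summed to 345, 157 and 163 CPM, transmembrane collagens to 157, 66.8 and 62.8 CPM, FN1, SPARC and POSTN together to 291, 98.4 and 102 CPM, and collagen VI to 223, 148 and 160 CPM, each time in the order BMP4, CHIR, CHIR+Activin. Laminin alpha chains summed to 91.6, 91.7 and 92.4 CPM and laminin beta chains to 42.8, 44.7 and 42.2 CPM in the same order.

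**Figure D1:**
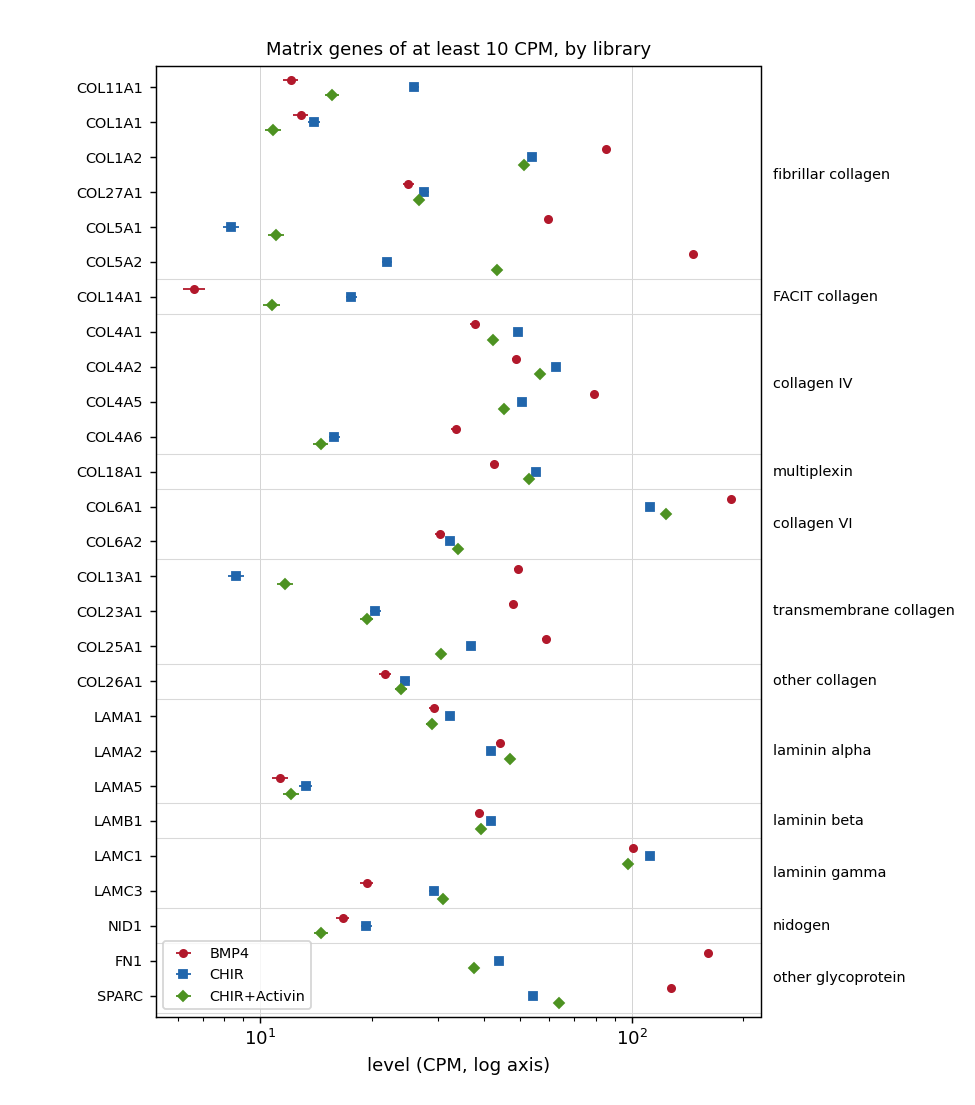
Level of each of the 27 genes of at least 10 CPM in any library, in CPM on a log axis, with points for the 3 libraries and bars for the exact 95% counting interval, grouped by the kind of protein. The laminin points lie close together, from 38.9 to 41.7 CPM for LAMB1, while COL5A2 spreads from 21.97 CPM in CHIR to 147 CPM in BMP4.

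Of the fibrillar collagens, COL5A1 and COL5A2 were lowest in CHIR. They are chains of collagen V, which starts and limits the width of collagen I fibres. COL5A2 was at 147 CPM in BMP4, 21.97 CPM in CHIR and 43.3 CPM in CHIR+Activin. COL5A1 was at 59.7, 8.32 and 11.01 CPM in the same order. BMP4 was thus high for both chains and the CHIR libraries low, and the counting intervals of the 3 libraries did not overlap for either. The log2 ratio of CHIR over BMP4 was -2.74 (interval -2.79 to -2.69) for COL5A2 and -2.84 (-2.92 to -2.76) for COL5A1. For CHIR+Activin over BMP4 it was -1.76 and -2.44. Another collagen V chain, COL5A3, was low throughout and went the other way, at 0.714 CPM in BMP4, 1.65 CPM in CHIR and 1.44 CPM in CHIR+Activin. COL1A2, a chain of collagen I, was at 85.3, 53.7 and 51.2 CPM, and its partner COL1A1 at 12.8, 13.96 and 10.8 CPM. COL1A1 was thus not lower in CHIR than in BMP4, while COL1A2 was lower in both CHIR libraries. COL11A1, whose chain replaces collagen V in cartilage fibres, went the other way, at 12.1, 26.0 and 15.6 CPM. COL27A1 stayed between 25.03 and 27.6 CPM.

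FN1, which cells bind through integrins, was at 161 CPM in BMP4, 44.0 CPM in CHIR and 37.6 CPM in CHIR+Activin. SPARC, a secreted collagen-binding protein, was at 128, 54.2 and 63.7 CPM. Both were high in BMP4 and low in the other libraries. The log2 ratios to BMP4 were -1.87 and -2.10 for FN1 and -1.24 and -1.002 for SPARC, with CHIR named first. POSTN, an adhesion protein of mesenchyme, was low throughout, at 2.17, 0.313 and 0.398 CPM.

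Among the membrane-held collagens, COL13A1, found at cell adhesions, was at 49.3 CPM in BMP4, 8.58 CPM in CHIR and 11.6 CPM in CHIR+Activin, and COL23A1 at 47.8, 20.4 and 19.3 CPM. COL25A1 was at 58.8, 36.9 and 30.7 CPM, under 2-fold in both ratios to BMP4 (log2 ratio -0.67 for CHIR). All 3 were highest in BMP4. The FACIT collagen COL14A1 was lowest there, at 6.63, 17.6 and 10.7 CPM. COL9A2, a chain of the cartilage collagen IX, was at 9.71 CPM in BMP4, just under the minimum, and at 0.896 and 1.03 CPM in the others. Its partner chains COL9A1 (2.55, 3.38 and 2.75 CPM) and COL9A3 (7.44, 6.10 and 6.49 CPM) did not share this difference.

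Collagen IV divided by chain. COL4A1 and COL4A2, which make the common trimer of basement membranes, were slightly lower in BMP4 (37.8 and 48.7 CPM) than in CHIR (49.4 and 62.4 CPM) or CHIR+Activin (42.3 and 56.7 CPM). COL4A5 and COL4A6, which make a trimer of particular membranes, were higher in BMP4: COL4A5 at 79.2, 50.8 and 45.3 CPM, and COL4A6 at 33.6, 15.8 and 14.5 CPM. COL4A3 and COL4A4 stayed at or under 2.86 CPM. These genes lie as neighbours that start from a shared stretch and are read in opposite directions. In the RefSeq annotation (GRCh38.p14), 126 bases separate the starts of COL4A1 and COL4A2, and 379 bases those of COL4A6 and COL4A5. The first stretch (chr13:110307158-110307283, read on the COL4A2 strand) and the 250 bases before the COL4A5 start (chrX:108439588-108439837, plus strand) are shown because the 2 pairs differed in opposite directions. Capitals mark a CCAAT box (CCAAT) or a GC box (GGGCGG) on either strand.

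COL4A1 to COL4A2: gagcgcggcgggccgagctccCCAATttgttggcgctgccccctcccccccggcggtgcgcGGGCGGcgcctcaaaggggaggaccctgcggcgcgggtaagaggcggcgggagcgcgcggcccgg
COL4A5: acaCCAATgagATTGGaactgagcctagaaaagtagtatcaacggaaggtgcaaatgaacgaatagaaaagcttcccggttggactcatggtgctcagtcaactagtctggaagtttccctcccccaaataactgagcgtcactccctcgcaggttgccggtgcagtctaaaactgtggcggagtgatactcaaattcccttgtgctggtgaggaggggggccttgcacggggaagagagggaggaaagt

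The COL4A1 to COL4A2 stretch is 80.2% G and C and holds 1 CCAAT box and 1 GC box. The COL4A5 stretch is 51.2% G and C and holds 2 CCAAT boxes, 1 on each strand, and no GC box. Of all 35116 RefSeq upstream windows of 250 bases, 32.0% hold a CCAAT box and 42.6% a GC box. The COL4A1 to COL4A2 stretch, of 126 bases, is shorter than these windows and has less room for a match. The levels of the paired chains kept a narrow ratio for 1 pair only. The ratio of COL4A1 to COL4A2 was 0.776, 0.791 and 0.746 in BMP4, CHIR and CHIR+Activin, and that of COL4A6 to COL4A5 was 0.424, 0.311 and 0.321. These are ratios of UMIs and hold the assay's bias for each gene. Whether that bias is the same in every library was not tested.

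COL6A1, a chain of collagen VI, was at 185, 112 and 124 CPM, and COL6A2 at 30.5, 32.3 and 34.1 CPM. The multiplexin COL18A1, a basement membrane proteoglycan, was at 42.7, 55.3 and 53.1 CPM. COL26A1 stayed between 21.7 and 24.5 CPM. Laminin chains differed little: LAMA1 was at 29.3, 32.5 and 28.9 CPM, LAMA2 at 44.2, 41.9 and 47.0 CPM, LAMA5 at 11.3, 13.2 and 12.1 CPM, LAMB1 at 38.9, 41.7 and 39.3 CPM, and LAMC1, the gamma chain of most laminins, at 101, 112 and 97.6 CPM. LAMC3 was the exception, at 19.3 CPM in BMP4 and 29.3 and 31.0 CPM in the CHIR libraries. NID1, which links laminin to collagen IV, was at 16.7, 19.3 and 14.6 CPM. None of these 6 laminin genes, nor NID1, reached 2-fold in a pair of libraries.

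Counted over the 27 measured genes, CHIR over BMP4 had 2 higher (COL11A1 and COL14A1), against 2.85% of the 10122 genes measured in that pair. It had 7 lower (COL5A1, COL5A2, COL13A1, FN1, SPARC, COL23A1 and COL4A6), against 3.09% of all. Both directions together made up 33.3% of the 27, against 5.94% of all. CHIR+Activin over BMP4 had 0 higher (1.84% of 9968 genes) and the same 7 genes lower (2.88%), which is 25.9% of the 27 against 4.72% of all in either direction. SPARC lay just inside 2-fold there, at a log2 ratio of -1.002. CHIR+Activin over CHIR had 0 of 27, against 0.204% of 9821 genes (0.183% higher and 0.0204% lower), with COL5A2 just outside at 0.98. Both ratios to BMP4 share the BMP4 library. The median log2 ratio of the 27 genes was 0.10, -0.05 and -0.09 in the 3 pairs in the order given, and that of all measured genes 0.03, -0.01 and -0.05.

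The BMP4 library was given with all its droplets, which shows the RNA outside cells. In its 73901 barcodes of 10 to 100 UMIs, 9 of the 26 genes of at least 10 CPM in BMP4 cells stood at least 1.5-fold above their level in the cells (34.6%, against 9.10% of all such genes). COL11A1 was at 34.0 CPM there against 12.1 CPM in cells, COL6A1 at 308 against 185 CPM and COL1A2 at 155 against 85.3 CPM. COL5A2 (154 against 147 CPM), COL5A1 (58.8 against 59.7 CPM) and COL4A6 (33.6 in both) stood at nearly the same level inside and outside cells. The part of this RNA in the results was not tested.

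Cells were then grouped by whether they held at least 1 UMI of TFAP2A (a factor of amnion and surface ectoderm), MESP1 (nascent mesoderm), TBXT (primitive streak) or SOX2 (epiblast). In BMP4, 1928 cells held TFAP2A (20.5%), 5590 MESP1 (59.5%), 7018 TBXT (74.7%) and 1572 SOX2 (16.7%). The groups overlapped, since 88.9% of MESP1-positive and 70.0% of TFAP2A-positive cells also held TBXT. In CHIR, 3859 cells held TBXT and 4536 SOX2, but 131 held MESP1 and 35 TFAP2A. In CHIR+Activin, 3148 held TBXT, 4257 SOX2, 259 MESP1 and 22 TFAP2A. Groups under 100 cells were not compared. Positive cells were deeper than negative ones in every group compared, for example 14811.5 against 12301 median UMIs for TFAP2A in BMP4. The markers were also in the 10 to 100 UMI barcodes of BMP4, with SOX2 at 54.0 CPM against 23.9 CPM in cells and MESP1 at 147 against 245 CPM. Whether single UMIs came from the cell itself was not tested. Among amnion or trophoblast markers (9 genes), the sum was 361 CPM in TFAP2A-positive against 127 CPM in TFAP2A-negative BMP4 cells. Primordial germ cell markers (6 genes) also summed higher with TFAP2A, at 185 against 79.7 CPM, and their part in the collagen and FN1 values was not tested. At least 1.5-fold higher, and at 10 CPM or more, were 4 of the 9 amnion or trophoblast genes and 2 of the 6 germ cell genes. Among nascent mesoderm markers (8 genes), the sum was 333 against 85.3 CPM for MESP1 in BMP4 and 170 against 63.1 CPM in CHIR+Activin. In CHIR the mesoderm markers stood at 61.4 against 54.7 CPM, and the 131 MESP1-positive cells there held 136 MESP1 UMIs in all. Definitive endoderm markers (6 genes) also summed higher with MESP1, at 470 against 187 CPM in BMP4 and 1064 against 214 CPM in CHIR+Activin. Of these, 2 genes in BMP4 and 5 in CHIR+Activin were at least 1.5-fold higher and at 10 CPM or more. Parietal or hypoblast-like endoderm markers (6 genes) summed to 58.6 against 14.4 CPM and 55.2 against 15.9 CPM. In each library only 1 of these 6 met the same limits, and 5 were under 10 CPM in MESP1-positive cells. The part of both lists in the collagen values was not tested.

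In MESP1-positive BMP4 cells COL5A1, COL5A2 and COL13A1 were high. COL5A1 was at 85.1 CPM against 17.7 CPM in MESP1-negative cells (log2 ratio 2.26, interval 2.16 to 2.36), COL5A2 at 203 against 53.2 CPM (1.93, 1.88 to 1.99) and COL13A1 at 65.8 against 22.1 CPM (1.57, 1.48 to 1.66). COL14A1 was low, at 4.45 against 10.2 CPM (-1.20). These were 4 of 28 measured genes (14.3%), against 4.14% of all. The other 24 measured genes stayed within 2-fold, among them COL6A1, SPARC and the laminins. The same 3 genes stood out in the 259 MESP1-positive cells of CHIR+Activin: COL5A2 at 179 against 37.4 CPM (2.26), COL5A1 at 49.1 against 9.36 CPM (2.39) and COL13A1 at 46.0 against 10.1 CPM (2.18), or 3 of 27 against 3.52% of all genes. In CHIR, where the MESP1-positive cells did not stand out by mesoderm markers, 0 of 26 did (0.121% of all), and COL5A2 was at 26.1 against 21.9 CPM.

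TBXT divided the same genes less steeply in BMP4. COL13A1 (57.2 against 20.6 CPM), COL5A1 (68.8 against 26.6 CPM) and COL5A2 (168 against 69.3 CPM) were higher in TBXT-positive cells, and COL14A1 (4.86 against 13.04 CPM) and COL11A1 (9.82 against 20.2 CPM) lower, which is 5 of 28 against 3.30% of all genes. Of these BMP4 differences by TBXT, however, only that of COL14A1 remained at least 2-fold when TBXT-positive cells that hold MESP1, TFAP2A or SOX2 were left out, with COL11A1 (-0.99) and COL13A1 (0.96) just under it on the log2 scale. In CHIR, TBXT gave 0 of 25 (0.162% of all), with COL5A2 at 24.98 against 17.1 CPM. In CHIR+Activin it gave COL5A2 (59.3 against 26.9 CPM) and COL13A1 (17.1 against 6.01 CPM), 2 of 27 against 0.798%.

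SOX2-positive cells showed the reverse. In BMP4, COL14A1 was at 14.2 against 4.62 CPM, while COL5A1 (24.9 against 68.9 CPM), COL5A2 (65.3 against 168 CPM), COL13A1 (22.8 against 56.4 CPM) and COL9A2 (5.01 against 10.95 CPM) were lower, 5 of 28 against 3.67% of all genes. In CHIR+Activin, COL13A1 (6.89 against 21.1 CPM), COL5A2 (26.96 against 75.9 CPM) and COL5A1 (7.44 against 18.1 CPM) were lower, 3 of 27 against 1.16%. In CHIR only COL13A1 was, at 6.61 against 13.3 CPM (1 of 27, against 0.253% of all), and it stood near the threshold.

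In TFAP2A-positive BMP4 cells, FN1 was at 310 CPM against 112 CPM in TFAP2A-negative cells (log2 ratio 1.47, interval 1.44 to 1.51) and COL25A1 at 102 against 44.5 CPM (1.20, 1.14 to 1.26). These were 2 of 28 measured genes, against 3.05% of all. The count moved with how the cells were chosen. It was 4 in thinned cells, 7 with at least 2 TFAP2A UMIs and 15 with TFAP2A alone, with FN1 and COL25A1 in each. The share of all genes under these choices is not given, so the larger counts are not read as particular to these genes. COL4A6 lay just outside 2-fold, at 53.3 against 27.1 CPM (0.97), and COL23A1 was at 70.4 against 40.4 CPM (0.80). COL5A1 and COL5A2 were lower here, COL5A2 at 87.8 against 166 CPM (-0.92). FN1 was also higher in TBXT-negative than TBXT-positive cells, at 242 against 138 CPM.

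**Figure D2:**
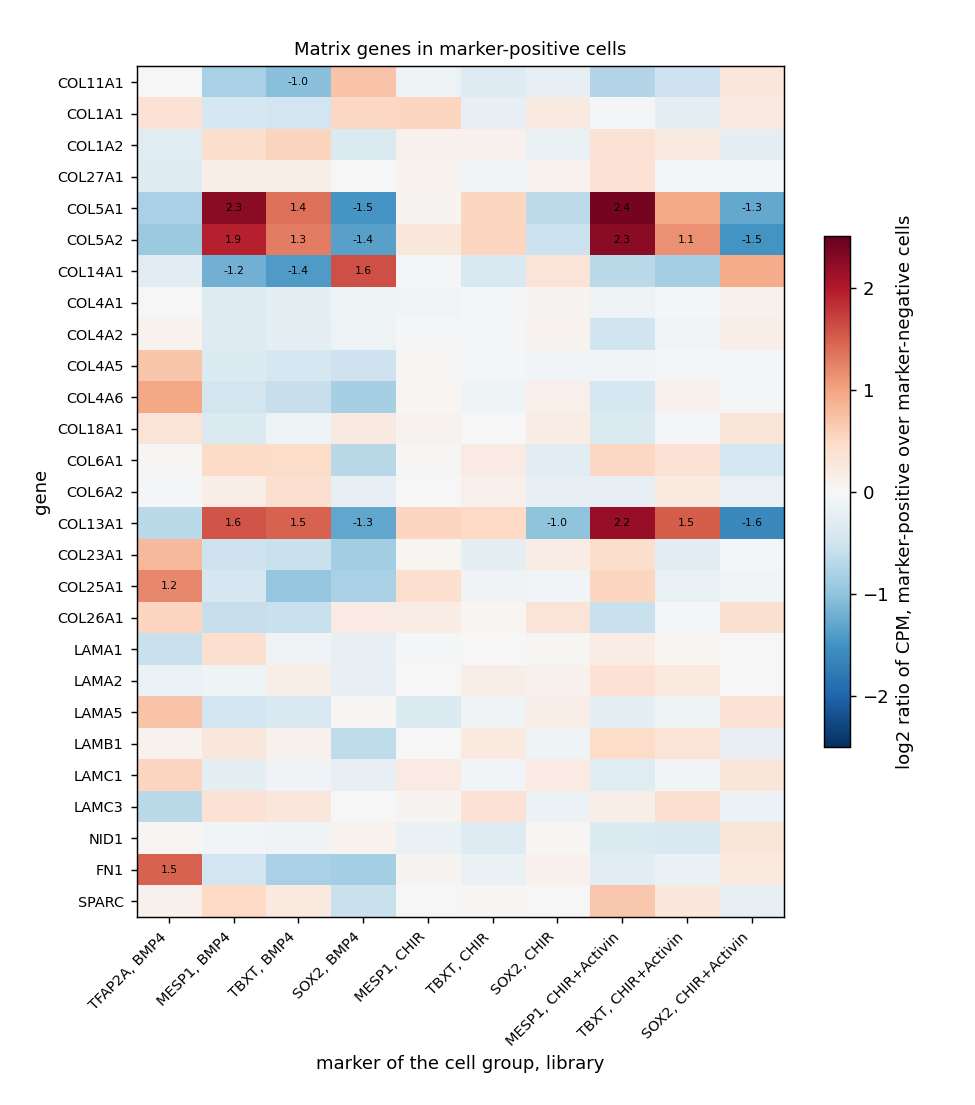
Log2 ratio of CPM in marker-positive over marker-negative cells, for the 27 genes (vertical) in the 10 marker groups of at least 100 cells (horizontal), with red for higher and blue for lower in positive cells; ratios of at least 1 in size are printed. COL5A1, COL5A2 and COL13A1 are red under MESP1 in BMP4 and CHIR+Activin (2.26 and 2.39 for COL5A1), and FN1 is red under TFAP2A in BMP4 (1.47).

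Since cells hold several markers, each cell was also placed by exactly which of the 4 it held. In BMP4, 12 such combinations had at least 100 cells. Over them, 21 of the 27 genes ranged at least 2-fold between the lowest and highest combination, beside 29.9% of the 10148 genes of at least 10 CPM in any library. Over the 4 combinations of CHIR it was 3 of 27 (1.69% of all), and over the 5 of CHIR+Activin 6 of 27 (11.5% of all). More combinations give more room for a range. The 431 BMP4 cells with TFAP2A alone had FN1 at 661 CPM, COL25A1 at 241 CPM, COL4A5 at 186 CPM, COL4A6 at 89.5 CPM and LAMC1 at 159 CPM. The same cells had COL5A2 at 18.3 CPM, COL5A1 at 8.74 CPM, COL13A1 at 8.06 CPM and LAMC3 at 6.00 CPM. The 3778 cells with MESP1 and TBXT were the opposite for these genes: FN1 at 119 CPM, COL25A1 at 48.2 CPM, COL4A5 at 68.6 CPM, COL4A6 at 26.8 CPM and LAMC1 at 88.9 CPM, with COL5A2 at 240.2 CPM, COL5A1 at 100.1 CPM, COL13A1 at 76.3 CPM and LAMC3 at 22.7 CPM. The 593 cells with SOX2 alone had FN1 at 61.7 CPM, COL25A1 at 40.6 CPM, COL5A2 at 27.8 CPM, COL5A1 at 6.37 CPM and COL13A1 at 6.48 CPM, with LAMC3 at 18.98 CPM, near its level in the MESP1 and TBXT cells. Of the 12 combinations these cells had the lowest COL6A1, 78.6 CPM, and the highest COL14A1, 23.6 CPM. Amnion or trophoblast markers summed to 892 CPM and primordial germ cell markers to 287 CPM in the TFAP2A cells, nascent mesoderm markers to 386 CPM in the MESP1 and TBXT cells and epiblast markers to 3074 CPM in the SOX2 cells. The MESP1 and TBXT cells also held definitive endoderm markers at 536 CPM and primitive streak markers at 972 CPM.

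**Figure D3:**
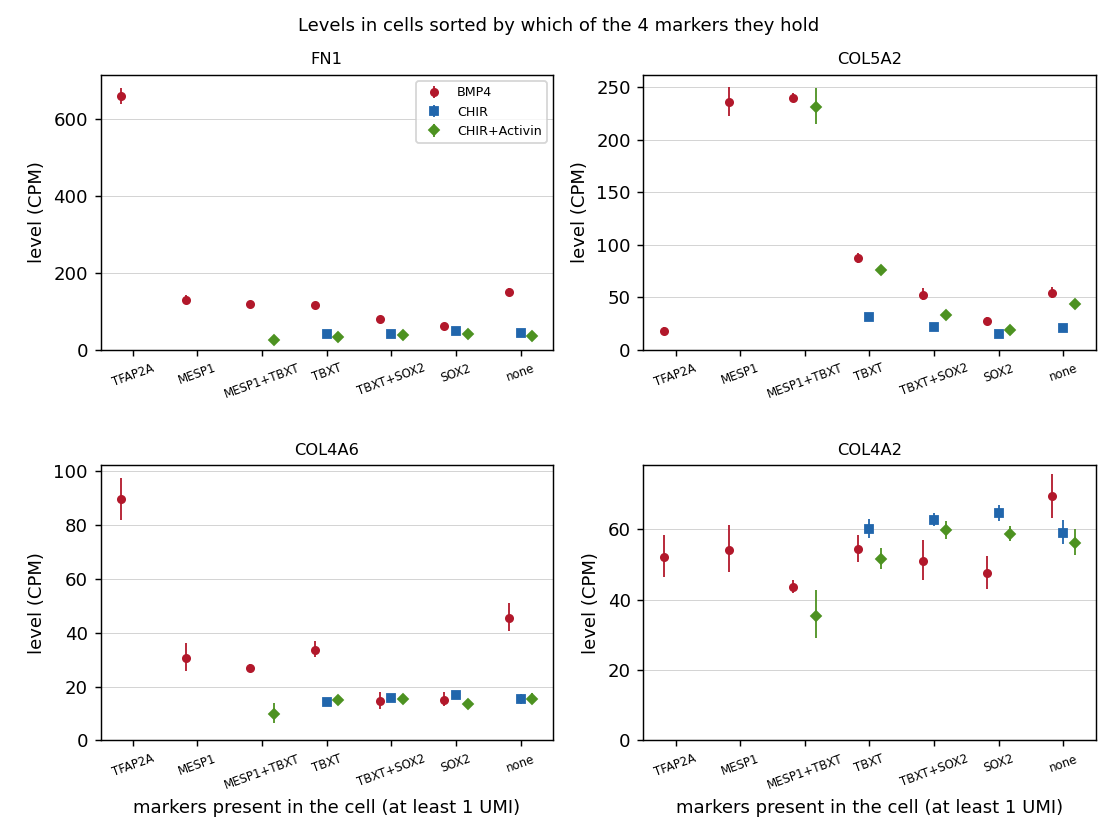
Level in CPM of FN1, COL5A2, COL4A6 and COL4A2 in cells holding exactly the named markers of the 4, for combinations of at least 100 cells; points are libraries and bars exact 95% counting intervals. FN1 reaches 661 CPM in BMP4 cells with TFAP2A alone, and COL5A2 is at 240.2 CPM in BMP4 and 231.5 CPM in CHIR+Activin cells with MESP1 and TBXT, while COL4A2 keeps to a narrow range.

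Some basement membrane genes varied less over these combinations. COL4A1 ranged 1.88-fold, COL4A2 1.81-fold, LAMA2 1.73-fold and NID1 1.43-fold in BMP4, against 15.7-fold for COL5A1, 13.1-fold for COL5A2, 11.8-fold for COL13A1 and 10.7-fold for FN1. The other collagen IV chains ranged more widely, COL4A6 6.24-fold and COL4A5 3.32-fold, and so did the laminin chains LAMC3 (4.59-fold), LAMA1 (3.85-fold), LAMA5 (2.86-fold), LAMB1 (2.64-fold) and LAMC1 (2.33-fold). The median over the 27 genes was 2.83-fold. LAMA1, an alpha chain of early embryonic basement membranes, was at 57.4 CPM in cells with MESP1 alone and 14.9 CPM in those with TFAP2A alone. LAMA5 was at 23.5 CPM with TFAP2A alone and 8.23 CPM with MESP1 and TBXT. The COL4A1 to COL4A2 ratio stayed between 0.698 and 0.921 over the BMP4 combinations, while the COL4A6 to COL4A5 ratio ran from 0.252 to 0.672.

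The upstream stretches of FN1, COL5A1 and COL13A1 are shown because, after COL5A2, these genes were farthest apart between BMP4 cells with TFAP2A alone and those with MESP1 and TBXT (RefSeq, GRCh38.p14, 250 bases before the start). FN1 is at chr2:215436069-215436318 on the minus strand, COL5A1 at chr9:134641553-134641802 and COL13A1 at chr10:69801656-69801905, both on the plus strand. Capitals mark the CCAAT and GC boxes and 3 more motifs sought on both strands, which may overlap each other. These are the TATA box (TATAAA), the cyclic AMP response element (TGACGTCA) and the motif bound by TFAP2 proteins (GCCNNNGGC).

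FN1: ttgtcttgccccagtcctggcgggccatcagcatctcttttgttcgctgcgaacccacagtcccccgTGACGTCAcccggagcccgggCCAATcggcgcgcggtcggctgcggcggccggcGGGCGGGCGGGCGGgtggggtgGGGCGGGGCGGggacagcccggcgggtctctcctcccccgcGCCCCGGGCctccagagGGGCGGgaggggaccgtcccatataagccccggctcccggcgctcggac
COL5A1: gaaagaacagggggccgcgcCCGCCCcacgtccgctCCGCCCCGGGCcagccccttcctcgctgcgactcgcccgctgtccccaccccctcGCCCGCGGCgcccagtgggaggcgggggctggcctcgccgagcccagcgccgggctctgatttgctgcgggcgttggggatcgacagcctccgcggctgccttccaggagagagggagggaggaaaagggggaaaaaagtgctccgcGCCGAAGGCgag
COL13A1: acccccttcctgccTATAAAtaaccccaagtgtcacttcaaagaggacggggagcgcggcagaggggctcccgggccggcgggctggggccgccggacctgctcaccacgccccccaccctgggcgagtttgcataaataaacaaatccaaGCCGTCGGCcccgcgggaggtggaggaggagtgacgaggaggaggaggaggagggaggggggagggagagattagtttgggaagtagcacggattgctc

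FN1 holds 1 CCAAT box, 6 GC boxes, 1 cyclic AMP response element and 1 TFAP2 match. COL5A1, which was low in TFAP2A cells, holds 3 TFAP2 matches and 2 GC boxes. COL13A1 holds 1 TFAP2 match and 1 match to the TATA box letters, which begins 236 bases before the start. Only the exact letters TATAAA were sought, so the letters tataag near the end of the FN1 stretch are not marked. The cyclic AMP response element occurs in 1.65% of all windows, the TFAP2 motif in 19.8% and the TATA box in 10.7%. Of the 27 measured genes, 20 had a window; among these the TFAP2 motif was found in 9 and the T-box motif TCACACCT and the TCF/LEF motif ATCAAAG in 0, against 0.786% and 2.26% of all windows. A match is a run of letters and says nothing of binding.

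To see whether the levels followed the number of marker UMIs, each cell was thinned to 10000 UMIs, which left out 2360 BMP4, 192 CHIR and 333 CHIR+Activin cells. In BMP4, FN1 was at 117 CPM in cells with no TFAP2A UMI, 238 CPM with 1, 429 CPM with 2 to 3 and 764 CPM with at least 4. COL25A1 was at 46.4, 77.7, 176 and 251 CPM and COL4A6 at 28.1, 47.5, 73.4 and 84.8 CPM over the same bins. COL5A2 was at 163, 117, 48.5 and 17.4 CPM there. For MESP1, COL5A2 was at 59.0, 154, 206 and 262 CPM, COL5A1 at 18.8, 56.4, 80.1 and 123 CPM and COL13A1 at 25.2, 48.8, 74.3 and 83.6 CPM, each higher in every successive bin. FN1 was at 182, 149.9, 139 and 121 CPM over the MESP1 bins. For SOX2, COL14A1 was at 4.70, 12.1, 22.9 and 26.9 CPM and COL5A2 at 165, 76.3, 43.7 and 30.8 CPM; the last SOX2 bin held 52 cells and the last TFAP2A bin 92. Outside BMP4, COL5A2 by TBXT was at 30.9, 52.2, 86.5 and 149 CPM in CHIR+Activin and ran from 19.4 CPM with no TBXT UMI to 36.4 CPM with at least 4 (55 cells) in CHIR. In thinned BMP4 cells, 73.6% of MESP1-positive cells held a COL5A2 UMI, against 33.9% of MESP1-negative cells (78.5% and 37.1% unthinned). In CHIR, where the gene was low, 17.5% of the thinned MESP1-negative cells did.

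**Figure D4:**
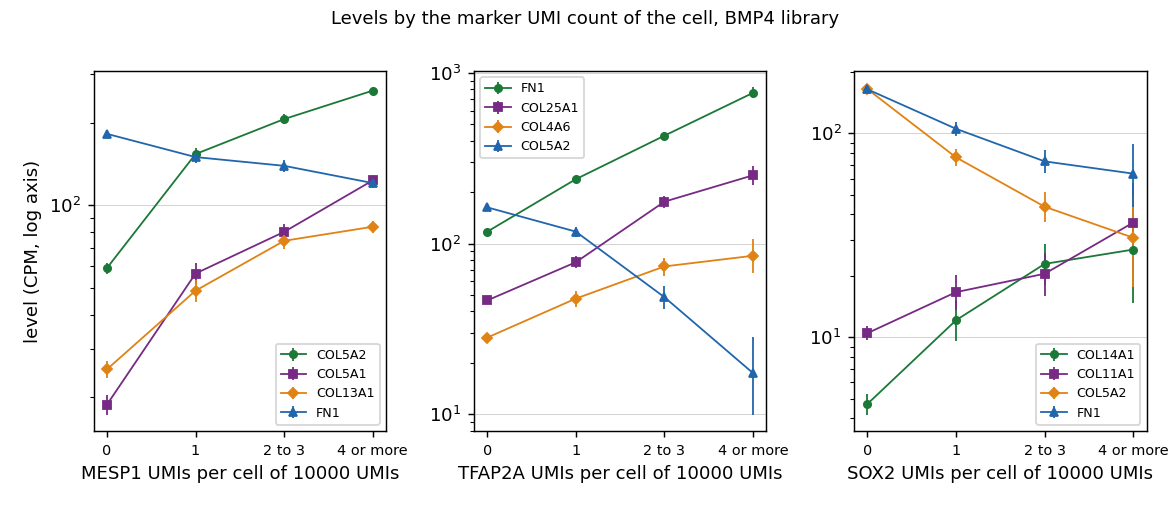
Level in CPM (log axis) of 4 genes per panel in BMP4 cells thinned to 10000 UMIs, by the number of MESP1, TFAP2A or SOX2 UMIs in the cell (horizontal), with exact 95% counting intervals as bars. COL5A2 runs from 59.0 to 262 CPM over the MESP1 bins, and from 163 down to 17.4 CPM over the TFAP2A bins, where FN1 runs from 117 to 764 CPM.

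The libraries were then compared within a marker group. In MESP1-positive cells, CHIR+Activin and BMP4 were under 2-fold apart for COL5A2, COL5A1 and COL13A1. COL5A2 was at 179 and 203 CPM (log2 ratio -0.18, interval -0.28 to -0.09), COL5A1 at 49.1 and 85.1 CPM (-0.79) and COL13A1 at 46.0 and 65.8 CPM (-0.52). FN1 was not, at 31.3 and 140.02 CPM (-2.16), nor were COL4A6 (10.9 and 29.4 CPM) and COL9A2 (2.39 and 10.6 CPM). FN1, COL4A6 and COL9A2 were the 3 of 26 measured genes at least 2-fold apart, against 3.96% of all. For the 131 MESP1-positive cells of CHIR, the ratio to BMP4 was at least 2-fold for 8 of 28 genes (8.55% of all): COL11A1 and COL14A1 were higher in CHIR, and COL5A1, COL5A2, COL13A1, FN1, SPARC and COL9A2 lower, with COL5A2 at 26.1 against 203 CPM. CHIR+Activin over CHIR had 5 of 27 apart (4.75% of all). COL5A2 (179 against 26.1 CPM), COL5A1 (49.1 against 8.71 CPM) and COL13A1 (46.0 against 12.3 CPM) were higher in CHIR+Activin, and COL11A1 (9.56 against 23.9 CPM) and COL14A1 (6.80 against 17.2 CPM) lower. In cells with exactly MESP1 and TBXT, FN1 was at 26.9 CPM in CHIR+Activin and 119 CPM in BMP4, while COL5A2 was at 231.5 and 240.2 CPM. These 2 groups of cells differed in other markers. Definitive endoderm markers summed to 1425 CPM in CHIR+Activin and 536 CPM in BMP4, and nascent mesoderm markers to 220 and 386 CPM. The part of this in the FN1 and COL5A2 levels was not tested.

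In TBXT-positive cells, CHIR over BMP4 had 8 of 27 apart (6.42% of all genes): COL11A1 and COL14A1 higher, and COL5A1, COL5A2, COL13A1, FN1, SPARC and COL23A1 lower. CHIR+Activin over BMP4 had 6 of 26 lower (4.71% of all), with COL5A2 at 59.3 against 168 CPM. CHIR+Activin over CHIR had COL5A2 higher (59.3 against 24.98 CPM, 1.247) and COL14A1 lower (7.72 against 15.7 CPM, -1.03), which is 2 of 27 against 0.437%. In SOX2-positive cells, COL5A1, COL5A2, COL13A1 and FN1 were lower in CHIR than in BMP4, 4 of 27 against 1.86% of all genes, and the same 4 in CHIR+Activin, 4 of 27 against 1.51%. CHIR+Activin over CHIR had 0 of 25 (0.0713% of all). In cells with SOX2 and none of the other 3 markers, 0 of 25 were at least 2-fold apart in either ratio to BMP4, beside 1.25% of all genes for CHIR and 0.841% for CHIR+Activin. There FN1 was at 61.7, 48.7 and 41.5 CPM and COL5A2 at 27.8, 15.6 and 19.4 CPM, BMP4 being named first and CHIR+Activin last. In the same SOX2-alone cells, LAMC1 was at 80.4, 117 and 104 CPM and COL4A2 at 47.6, 64.7 and 58.8 CPM.

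Of the genes that act with collagens and laminins, 4 lists were read beside them. For CHIR over BMP4 their counts stand beside 2.85% of all genes higher and 3.09% lower. Of 28 enzymes that fold, cut or crosslink collagen, 16 were measured and 1 was at least 2-fold lower, ADAMTS3, a procollagen peptidase (12.8 against 55.6 CPM). The prolyl hydroxylase P4HA1, which lets the helix form, was at 111 against 72.8 CPM. Of 26 matrix receptors, 14 were measured, 1 was higher and 4 lower, among them the fibronectin receptor chain ITGA5 (7.499 against 21.1 CPM) and ITGA9 (8.06 against 29.4 CPM). Of 29 other matrix glycoproteins and proteoglycans, 13 were measured, 1 was higher (THBS2, 32.3 against 4.69 CPM) and 3 lower, including the microfibril protein FBN2 (26.1 against 199 CPM) and EGFLAM (2.81 against 25.9 CPM). Of 25 matrix proteases and inhibitors, 14 were measured, with ADAMTS20 higher (76.0 against 20.4 CPM) and 5 lower, including ADAMTS9 (1.20 against 13.9 CPM). For CHIR+Activin over CHIR no gene of the 4 lists reached 2-fold. The median log2 ratio of these lists for CHIR over BMP4 was 0.07, -0.34, -0.23 and -0.49 in the order given.

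Within BMP4, some of these genes differed by marker group, and most did not. By MESP1, 14 of 15, 11 of 14, 7 of 13 and 13 of 14 measured genes were under 2-fold, in the order of the lists. By TFAP2A it was 14 of 14, 13 of 14, 8 of 13 and 13 of 15, and by SOX2 14 of 15, 12 of 14, 8 of 13 and 11 of 14. Of all genes, 4.14%, 3.05% and 3.67% were at least 2-fold apart by MESP1, TFAP2A and SOX2. The genes named are among the 3 largest ratios of each list. In MESP1-positive cells, EGFLAM (37.4 against 6.80 CPM), NTN1 (96.5 against 25.2 CPM), ADAMTS3 (75.4 against 23.03 CPM), ITGA5 (28.3 against 9.21 CPM) and ITGA9 (38.0 against 15.3 CPM) were higher, as was ADAMTS9 (17.4 against 8.15 CPM). The laminin receptor chain ITGA6 (18.97 against 49.4 CPM) and FREM2, of the basement membrane FRAS1 complex (14.7 against 49.3 CPM), were lower. In TFAP2A-positive cells, FREM2 (66.2 against 15.1 CPM), TINAGL1 (10.3 against 3.35 CPM), SDC2 (81.7 against 40.1 CPM) and ADAMTS18 (15.1 against 1.62 CPM) were higher, while EGFLAM (10.5 against 30.9 CPM) and ADAMTS20 (10.2 against 23.8 CPM) were lower. In SOX2-positive cells, ITGA6 (56.1 against 23.7 CPM), THBS2 (10.97 against 3.02 CPM) and ADAMTS20 (33.98 against 16.8 CPM) were higher. Lower there were EGFLAM (9.61 against 30.2 CPM), FBN2 (78.6 against 230.5 CPM), ADAMTS9 (4.94 against 16.3 CPM), ADAM19 (57.4 against 139.6 CPM), ADAMTS3 (27.01 against 63.2 CPM) and ITGA9 (14.6 against 33.3 CPM).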

How the data were processed

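RNA was measured with the 10x Genomics 3' single-cell assay in 3 libraries, 1 per treatment. The authors deposited unnormalized UMI counts for each gene in each barcode. Per the file headers they came from Cell Ranger 8.0.1, and Seurat is named in the submitters' processing notes. For the counts, the genome build and intronic counting were not given in the sources used here. BMP4 cells were barcodes of at least 3739 UMIs, or 10% of the level at the 99th percentile among the 10000 largest barcodes. Cells under 2000 genes or over 15% mitochondrial UMIs were left out, which took 39 barcodes out of BMP4, 622 out of CHIR and 515 out of CHIR+Activin. Doublets were kept, and their removal is an alternative.

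UMIs were summed over cells, scaled to CPM and compared as log2 ratios with exact conditional binomial intervals. Shares carry exact Clopper-Pearson intervals in the tables. A comparison needed 100 cells per side. In simulated data 200 of 200 genes set 4-fold apart were found and 0 unchanged genes were called in each pair of libraries. The simulation held counting error only. It therefore checks the calculation and cannot show how much cultures differ or what RNA outside cells adds. Members, lists and markers were chosen with earlier results of these data known. Genes of at least 10 CPM, those at least 2-fold apart and up to 3 genes per list were named. Software was Python 3.11.15, numpy 2.4.6, pandas 2.3.3, scipy 1.17.1 and matplotlib 3.10.9. Upstream sequences came from RefSeq, where 46 of 61 genes matched. Alternatives are given in the closing section.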

Additional observations from a re-analysis of the deposited data

Results flagged for a closer look

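In 4 cases a gene was higher in MESP1-positive than MESP1-negative cells of 1 library and lower in another, with counting intervals that exclude equal levels; the difference between libraries was not tested. COL25A1 had a log2 ratio of -0.4151 in BMP4 (52.2 against 69.6 CPM) but 0.4109 in CHIR (48.7 against 36.6 CPM) and 0.5326 in CHIR+Activin (43.6 against 30.1 CPM). COL23A1 had -0.5267 in BMP4 (41.0 against 59.1 CPM) and 0.4456 in CHIR+Activin (25.9 against 19.04 CPM). COL1A1 had -0.4464 in BMP4 and 0.5424 in CHIR (20.1 against 13.8 CPM). The 131 MESP1-positive cells of CHIR held 136 MESP1 UMIs in all. Nascent mesoderm markers summed to 61.4 CPM in them, against 54.7 CPM in MESP1-negative CHIR cells. They were also deeper, at a median of 31390 against 22824 UMIs, and the part of depth in these ratios was not tested. Of the TFAP2A-positive BMP4 cells, in which COL25A1 and COL23A1 were high, 50.1% also held MESP1 and the rest were MESP1-negative; the CHIR libraries held 35 and 22 TFAP2A-positive cells; the part of this in the results was not tested.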

How the results depend on the processing

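Of 127 counts of genes recomputed under an alternative, 105 stayed within 1.5 times. The share of all genes under each alternative is not given. The counts below therefore show only how far the main counts moved. Of 437 gene ratios, 325 were classed as the same and 112 as moved, while none changed direction and 414 stayed at least 2-fold. With no minimum level the counts were 22 (CHIR over BMP4) and 16 (CHIR+Activin over BMP4) of 61. The genes added were under 10 CPM in both libraries of the pair. Some had few UMIs, such as COL3A1 (2 in CHIR and 11 in BMP4). Others had more, such as COL9A2 (166 in CHIR and 1332 in BMP4). CHIR+Activin over CHIR had 1 gene with the highest 6% of doublet scores removed and 1 when scaled by the median ratio, COL5A2 being near 2-fold. Positivity for that marker alone gave 0 and 0 genes for SOX2-positive cells of CHIR and CHIR+Activin over BMP4, 3 for TBXT-positive cells of CHIR+Activin over BMP4, and, for positive over negative cells, 10 (SOX2, BMP4), 2 (SOX2, CHIR), 3 (TBXT, BMP4, with 1 shared), 1 (TBXT, CHIR), 4 (TBXT, CHIR+Activin) and 15 (TFAP2A, BMP4). A minimum of 20 CPM gave 3 (SOX2, BMP4), 0 (SOX2, CHIR) and 1 (TBXT, CHIR+Activin), and one of 5 CPM 4 (TFAP2A, BMP4). At least 2 UMIs of the marker gave 4 (TBXT, CHIR+Activin) and 7 (TFAP2A, BMP4). Thinning gave 0 (SOX2, CHIR), 4 (TFAP2A, BMP4) and 4 (TBXT-positive cells, CHIR+Activin over CHIR). In 13 cases with MESP1-positive cells a group fell under 100 cells and the alternative was not run. No paired analysis was possible because each treatment has 1 library.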
